A study of Mus musculus with 32 samples.

Results

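The comparison concerned proB cells of 2 genotypes. The 4 *Pax5*+/- *Myd88*-/- arrays (Myd88-null) and the 4 *Pax5*+/- arrays (Myd88-intact) were taken by their titles, 8 of the 32 arrays in the series, and no measured value was used to choose them. Both groups carried a single intact *Pax5* allele on a mixed C57BL/6×CBA background. The *Myd88* allele was the tm1.1Defr deletion, and its parts that are deleted are not given in the sources used here. Per the labels the mice were healthy and untreated, were moved from specific pathogen-free to conventional housing, and gave bone marrow cells selected on B220 with magnetic beads. The methods describe proB cells from mice a few weeks old, grown with IL7 on ST2 feeder cells, for the WT, *Pax5*+/- and *Pax5*+/- *Myd88*+/- genotypes and do not mention the Myd88-null cells, so the culture of that group is not known from them. The 4 WT and the 4 *Pax5*+/- *Myd88*+/- (Myd88-heterozygous) arrays entered the same fit, and their levels are given beside those of the 8 arrays compared.

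*Myd88* is the adaptor through which most Toll-like receptors and the receptors of the interleukin-1 family recruit the IRAK kinases and *Traf6* and so activate NF-kB and MAP kinases. Toll-like receptor 3 signals without it. *Pax5* is the transcription factor that commits early B-lineage cells, by activating B-cell genes and repressing genes of other lineages. ProB cells, which have begun to rearrange the immunoglobulin heavy-chain locus, depend in the mouse on IL7. Levels here are log2 values of gene-level RMA, in which a difference of 1 is a fold change of 2, and a probeset was called where limma gave an adjusted p under 0.05 and a difference over 1. Because a gene's probes set its brightness, levels were compared between arrays and not between genes.

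The 8 arrays carried the RNA of early B cells. The 9 proB markers measured, *Ptprc*, *Ebf1*, *Il7r*, *Igll1*, *Vpreb1*, *Dntt*, *Rag1*, *Rag2* and *Cd79a*, lay between 9.82 and 13.37 on every one of them, and 87% of the autosomal probesets had a mean below 9.82. The groups differed in sex as well as in genotype. *Xist*, transcribed from the inactive X chromosome of females, read 12.29 to 12.49 in the Myd88-null arrays and 5.61 to 5.97 in the *Pax5*+/- arrays, while the Y-linked genes *Kdm5d*, *Eif2s3y* and *Uty* differed by -4.35 to -3.58 (Myd88-null minus *Pax5*+/-). Genotype and sex cannot be told apart in this comparison. For this reason only autosomal genes are described, and the Myd88-heterozygous arrays, which were *Xist*-high as well, are set beside the 8 arrays as a comparison within 1 sex. It shares the Myd88-null arrays with the main comparison and is no independent test of it.

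A single *Pax5*+/- array stood about as near to the other genotype as to part of its own. Over all probesets the Myd88-null arrays correlated with each other at 0.9969 to 0.998. *Pax5*+/- replicate 1 correlated with them at 0.9914 to 0.9919, and *Pax5*+/- replicates 2 and 4 at 0.9833 to 0.9868. Within the *Pax5*+/- group, replicates 1 and 3 correlated at 0.9965 and replicates 2 and 4 at 0.9976, against 0.9913 to 0.9951 across these pairs. The labels call every array a biological replicate and name no culture or animal, so that p-values may measure a spread that is partly technical. Values with only 1 of these pairs of *Pax5*+/- arrays are given where they ended the call of a named gene.

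*Myd88* (chr9:119335934-119340018, mm10) read 7.44, 7.41, 7.04 and 7.38 in the Myd88-null arrays and 9.27, 9.21, 9.27 and 9.35 in the *Pax5*+/- arrays. The groups were far apart, and the Myd88-null level was 25.7% of the *Pax5*+/- level (difference -1.96, SE 0.10, adjusted p = 1.02e-09 by limma; 2-sided exact permutation p = 0.0286, the smallest that 4 against 4 arrays allow). The Myd88-heterozygous arrays, at 8.51 to 8.78, lay between both, 0.63 below the *Pax5*+/- arrays, and the Myd88-null arrays were lower than them by 1.32 on the log2 scale (adjusted p = 1.88e-07 by limma). Where its probes lie relative to the deleted part is not given in the sources used here, and a residual signal above 7 in the null arrays says nothing about intact transcript. *Pax5* was at 11.05, 10.96, 10.93 and 10.88 against 10.86, 11.29, 10.99 and 11.34. These values overlapped, and the difference did not pass the test (difference -0.17, SE 0.11, adjusted p = 0.355 by limma).

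**Figure D1:**
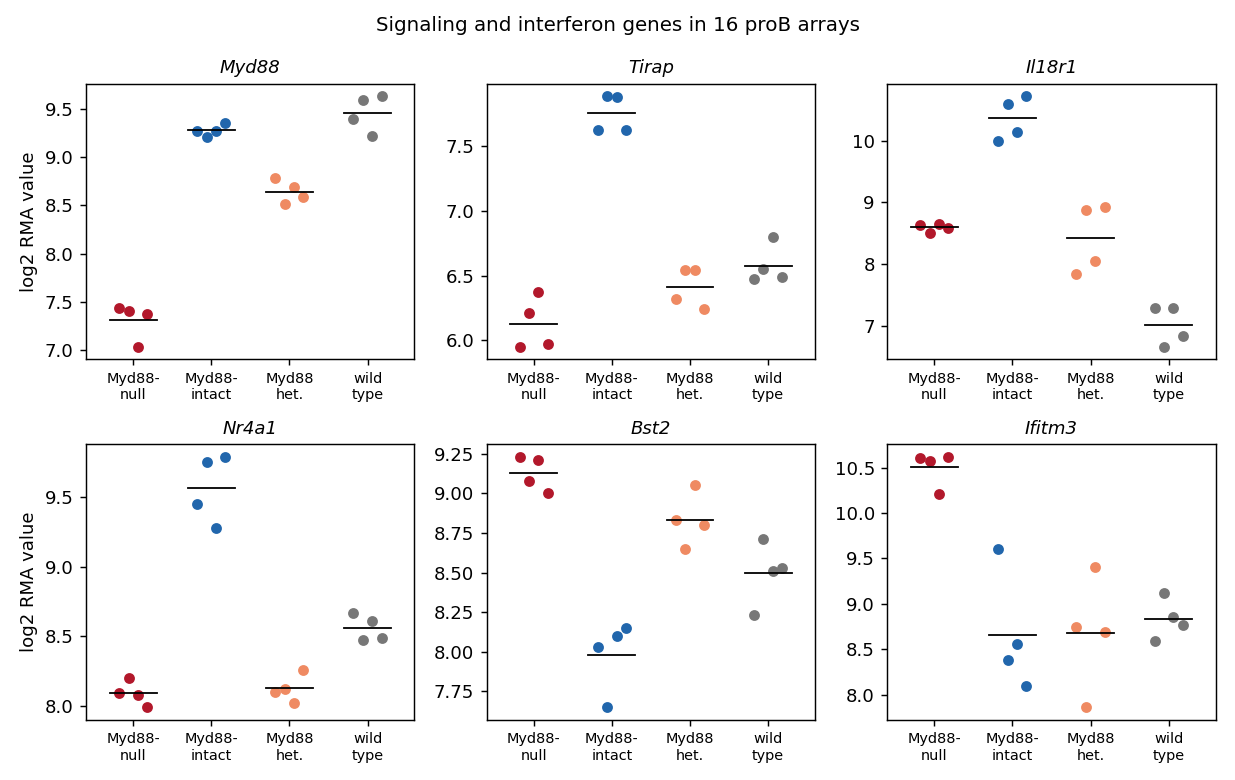
Log2 RMA values of 6 genes in the 16 proB arrays, 1 point per array and the mean of each genotype as a line, with a separate axis range for each gene. *Myd88*, *Tirap*, *Il18r1* and *Nr4a1* were lower and *Bst2* and *Ifitm3* higher in the 4 Myd88-null arrays than in the 4 Myd88-intact *Pax5*+/- arrays, with no overlap in any of the 6 genes.

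Across the autosomes, 221 of 20874 probesets that name a single gene were called (1.06%), 131 of them higher (0.628%) and 90 lower (0.431%) in the Myd88-null cells. They stood for 213 genes. The difference exceeded 2 log2 units in 38 of them, 20 higher and 18 lower, and the median size among the called was 1.36. In 214 of the 221 the 4 and 4 values did not overlap, against 17.3% of all autosomal probesets. Since the calls were made on these same arrays, that share is no separate support for them. The called probesets were not all of 1 kind when the other genotypes were set beside them. In 65 the Myd88-null arrays alone lay outside the range of the 12 other proB arrays, in 77 the *Pax5*+/- arrays alone did, in 15 both did and in 64 neither did. Over all autosomal probesets these ranges were left by the Myd88-null arrays in 4.85% and by the *Pax5*+/- arrays in 1.93%. Without *Pax5*+/- replicate 1 the count was 301, of which 208 were higher. With *Pax5*+/- replicates 2 and 4 only it was 399 and with replicates 1 and 3 only it was 214.

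**Figure D2:**
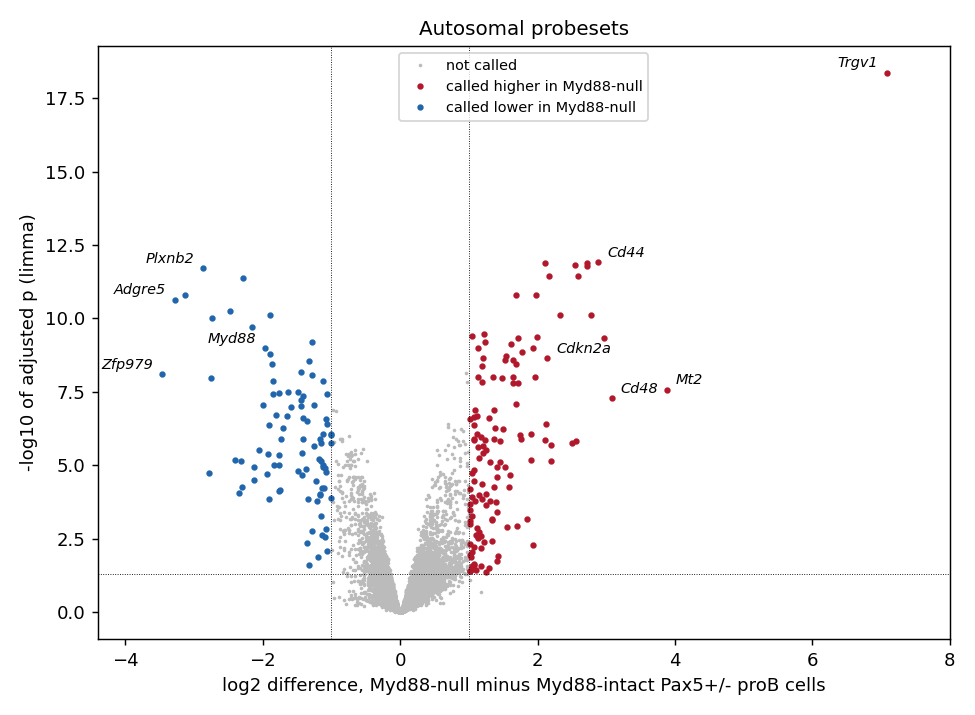
Each point is 1 of 20874 autosomal probesets, with its log2 difference (Myd88-null minus Myd88-intact *Pax5*+/-) on the x axis and -log10 of the adjusted p on the y axis, and dotted lines at the thresholds. The 131 probesets called higher and the 90 called lower stand outside the lines, and *Trgv1* lies alone at a difference of 7.09.

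The largest rise was that of a T-cell receptor gamma segment, *Trgv1* (chr13:19340016-19340454), a gene outside the naming rule that was picked after its values were seen. It read 12.39, 12.24, 12.29 and 12.24 in the Myd88-null arrays and 5.19, 5.37, 5.15 and 5.10 in the *Pax5*+/- arrays, a difference of 7.09 (SE 0.07, adjusted p = 4.38e-19 by limma). Since the *Pax5*+/- values lie below the lower quartile of those arrays, at 5.62 to 5.69, where RMA compresses differences, no fold is given. The 8 arrays of the other genotypes stayed low, with means of 4.93 in the Myd88-heterozygous and 4.94 in the WT cells. Of 20 antigen-receptor genes and segments measured, 9 of T-cell receptors and 11 of immunoglobulins, 3 others were called. Over all autosomal genes taken with 1 probeset each, 1.07% were called. *Ighm*, the heavy-chain constant region of IgM, was higher by 1.21 (8.45 against 7.23, adjusted p = 2.17e-06 by limma). *Trdv2-2* was higher by 1.08 (6.30 against 5.22). *Trav14-1* was lower by 2.13 on the log2 scale, at 7.08 against 9.21. In *Trav14-1* the *Pax5*+/- arrays lay above all others (Myd88-heterozygous mean 6.76, WT mean 5.67). In *Ighm* they lay below all others (means of 8.25 and 8.95 in the same order). Of 14 T-cell markers measured only *Lat* was called, the mean over the list lay at 6.64 to 6.71 in the Myd88-null and 6.55 to 6.66 in the *Pax5*+/- arrays, and what part other cells have in these levels was not tested.

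Among the Toll adaptors and the Myddosome, the kinase complex that forms on *Myd88*, 2 of 15 measured genes were called, beside 1.07% of all autosomal genes taken with 1 probeset each (0.618% higher and 0.455% lower). Both were adaptors and both were lower, and 1 of the 2 was *Myd88*, the deleted gene itself. *Tirap* (Mal), which bridges Toll-like receptors 2 and 4 to *Myd88*, read 5.95, 6.21, 6.37 and 5.97 against 7.63, 7.89, 7.88 and 7.63. That is a difference of -1.63 (SE 0.11, adjusted p = 3.27e-08 by limma). Here the *Pax5*+/- arrays were the ones that stood apart, since the Myd88-heterozygous (mean 6.41) and WT (mean 6.58) arrays were also low, and the Myd88-null arrays differed from the Myd88-heterozygous ones by -0.29 (adjusted p = 0.0992 by limma). The other members stayed within 0.5 of the *Pax5*+/- level, from *Tab2* (-0.27), which couples *Traf6* to the kinase Tak1, to the ubiquitin-conjugating enzyme gene *Ube2n* (0.47), and the median of the list was -0.03, as over all autosomal genes. *Irak2* and *Irak3*, the kinase family members measured, differed by -0.12 and 0.14, and *Traf6* by 0.16.

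Of 17 receptors of the Toll-like and interleukin-1 families, 1 was called (5.88%, beside 1.07% of all autosomal genes). *Il18r1*, which binds interleukin-18, read 8.63, 8.5, 8.65 and 8.58 in the Myd88-null arrays and 10, 10.59, 10.14 and 10.72 in the *Pax5*+/- arrays (difference -1.77, SE 0.23, adjusted p = 7.57e-05 by limma). The 4 *Pax5*+/- arrays again lay above all others, with the Myd88-heterozygous mean at 8.41 and the WT mean at 7.02. Its call was lost when replicates 1 and 3, and 2 and 4, were averaged (adjusted p = 0.0701) and in a fit of all 32 arrays (adjusted p = 0.344, both by limma). *Il18rap*, the second chain of that receptor, differed by -0.37 (adjusted p = 0.138). The receptors of bacterial products showed differences near 0, with 0.00 for *Tlr4* and -0.02 for *Tlr2*, and *Tlr9*, which senses DNA, was -0.28 (adjusted p = 0.0434, under the fold threshold).

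None of 14 measured NF-kB subunits and inhibitors was called, with a median of -0.09. Of the 14, 3 passed the adjusted p at any size, as did 2218 of all 19106 autosomal genes, the called ones included. *Nfkbid*, an atypical inhibitor of NF-kB, was the furthest from 0 at 0.80 (SE 0.10, adjusted p = 3.29e-05 by limma), with 8.54, 8.72, 8.38 and 8.72 against 7.65, 7.87, 7.76 and 7.87. The subunits *Rel* (-0.31), *Rela* (-0.25) and *Nfkb2* (-0.24) and the inhibitor *Nfkbia* (-0.13) did not pass the test. Of 40 NF-kB and immediate-early target genes 1 was called (2.5%, beside 1.07% of all autosomal genes). That gene was *Nr4a1*, an orphan nuclear receptor that antigen-receptor signals induce. It read 8.09, 8.20, 8.08 and 7.99 against 9.45, 9.75, 9.28 and 9.79, a difference of -1.48 (SE 0.10, adjusted p = 3.16e-08 by limma). The Myd88-heterozygous mean of 8.12 was at the Myd88-null level and the WT mean of 8.56 was nearer to it than to the *Pax5*+/- level. Of the 40, 11 passed the adjusted p at any size, *Nr4a1* included. Among those that were higher, the chemokine gene *Ccl3* differed by 0.98 (adjusted p = 0.00915), *Fosb* by 0.89, and *Dusp1* and *Cd69* by 0.65 each. The list median was -0.02.

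The interferon-response genes gave 2 calls of 33 (6.06%, beside 1.07% of all autosomal genes), both higher. *Ifitm3*, a membrane protein gene that restricts virus entry, read 10.61, 10.58, 10.21 and 10.62 against 9.60, 8.38, 8.56 and 8.09 (difference 1.85, SE 0.30, adjusted p = 0.000684 by limma). *Pax5*+/- replicate 1 was the highest of its group, and the 4 Myd88-null arrays exceeded all 12 others. With replicates 1 and 3, and 2 and 4, averaged its adjusted p was 0.0596. *Bst2*, which encodes tetherin, read 9.23, 9.08, 9.21 and 9 against 8.03, 7.65, 8.10 and 8.15 (difference 1.15, SE 0.12, adjusted p = 5.67e-06, and 0.118 in a fit of all 32 arrays, by limma). Its Myd88-heterozygous arrays, with a mean of 8.83, were near the Myd88-null ones. The median of the list was -0.01, and of 18 interferon-gamma response genes and 10 genes of MHC class II presentation none was called, with medians of 0.02 and 0.11. In these lists 5 and 4 genes passed the adjusted p at any size, among them the immunoproteasome subunit *Psmb8* at 0.75, beside the 2218 of 19106 given above.

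The promoters of the called interferon genes are shown because letters of interferon-responsive and NF-kB sites were looked for in them. The search read both strands of the 250 bases before the start listed for a gene in RefSeq's promoter sequences (GRCm38.p6), for GAAA and GAAA with any 2 bases between (interferon-type) and for GGGA and TTCC with any 2 bases between (kB-type). A promoter was matched for 168 of the 213 called genes. Interferon-type letters were in 3.46% of all genes with a listed promoter, in 4 of 102 called higher (3.92%) and in 2 of 66 called lower (3.03%). The kB-type letters were in 1.36% of all genes with a listed promoter, in 2 of 102 called higher (1.96%) and in 0 of 66 called lower. Capitals mark the matches, and both promoters are given 5′ to 3′ on the minus strand, at chr8:71537473-71537722 for *Bst2* and chr7:141010745-141010994 for *Ifitm3*.
*Bst2*, interferon-type letters: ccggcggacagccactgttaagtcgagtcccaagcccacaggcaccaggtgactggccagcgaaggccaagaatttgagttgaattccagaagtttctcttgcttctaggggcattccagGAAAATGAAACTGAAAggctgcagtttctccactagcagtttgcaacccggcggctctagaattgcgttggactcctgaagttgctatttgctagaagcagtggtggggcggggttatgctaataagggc
*Ifitm3*, kB-type letters: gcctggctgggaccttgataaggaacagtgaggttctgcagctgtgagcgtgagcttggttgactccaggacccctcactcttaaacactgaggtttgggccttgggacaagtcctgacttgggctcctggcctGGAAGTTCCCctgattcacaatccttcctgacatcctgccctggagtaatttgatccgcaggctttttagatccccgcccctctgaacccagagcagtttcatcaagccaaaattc
The letters in capitals are 2 overlapping matches in *Bst2* and 1 match in *Ifitm3*. The *Ifitm3* window held no interferon-type letters, and the *Bst2* window held no kB-type letters. *Myd88*, called lower, was among the genes with interferon-type letters. A match says only that the letters are there.

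Metallothioneins, small proteins that bind zinc and other metals, held the largest rise under the naming rule. *Mt2* read 11.35, 11.70, 11.28 and 11.58 in the Myd88-null and 8.26, 7.46, 7.63 and 7.05 in the *Pax5*+/- arrays, a difference of 3.88 (SE 0.25, adjusted p = 2.66e-08 by limma), or 14.7-fold. The WT mean of 10.78 was close to the Myd88-null mean, and the Myd88-heterozygous mean of 8.23 was close to that of the *Pax5*+/- arrays (Myd88-null minus Myd88-heterozygous 3.24, adjusted p = 3.37e-07). Its neighbour *Mt1* was higher by 1.41 (12.05, 12.21, 11.95 and 12.05 against 11.28, 10.56, 10.36 and 10.41, adjusted p = 0.000388). These paralogs are alike in sequence and may share probes, so their differences are not fully separate. Both windows hold the core letters of metal-response elements, TGCACNC or TGCGCNC on either strand. Such letters were in 23.8% of all genes with a listed promoter, in 31 of 102 called higher (30.4%) and in 22 of 66 called lower (33.3%). The windows lie on the plus strand of chromosome 8 at chr8:94172368-94172617 (*Mt2*, 3 matches in capitals) and chr8:94178839-94179088 (*Mt1*, 1 match), in RefSeq's GRCm38.p6. The outer bounds of the *Mt1* gene in RefSeq begin at 94178883, so most of its window, the match included, lies inside the gene as annotated.
*Mt2*, metal-response letters: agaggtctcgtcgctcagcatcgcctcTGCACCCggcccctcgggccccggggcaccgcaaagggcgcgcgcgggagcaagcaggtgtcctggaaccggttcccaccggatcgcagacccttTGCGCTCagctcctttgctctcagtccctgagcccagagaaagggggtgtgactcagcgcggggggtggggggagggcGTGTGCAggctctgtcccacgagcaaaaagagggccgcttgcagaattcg
*Mt1*, metal-response letters: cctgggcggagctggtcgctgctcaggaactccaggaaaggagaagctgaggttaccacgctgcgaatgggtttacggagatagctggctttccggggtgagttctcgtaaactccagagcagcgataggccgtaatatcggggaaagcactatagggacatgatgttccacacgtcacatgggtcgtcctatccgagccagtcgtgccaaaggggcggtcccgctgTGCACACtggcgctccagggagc

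Surface receptors of the SLAM and adhesion families had called members. *Cd48*, a ligand of SLAM-family receptors, read 9.81, 9.59, 9.66 and 9.59 against 7.08, 6.39, 6.71 and 6.15 (difference 3.08, SE 0.21, adjusted p = 5.25e-08 by limma). *Cd84*, its neighbour on chromosome 1 and a SLAM receptor, read 9.35, 9.15, 9.22 and 9.18 against 7.01, 6.86, 6.77 and 6.26 (difference 2.50, adjusted p = 1.73e-06). The 2 were the called members of 10 SLAM genes measured, whose median was 0.08. *Slamf6*, at 5.96 to 6.15 against 6.10 to 6.23, differed by -0.13, while the Myd88-heterozygous arrays had it at a mean of 9.71. *Cd44*, the hyaluronan receptor, read 9.14, 9.04, 9.07 and 9.12 against 6.45, 6.13, 6.26 and 6.03, a difference of 2.88 with an SE of 0.08 (adjusted p = 1.22e-12 by limma). The *Pax5*+/- arrays lay below all others in *Cd44*, *Cd48* and *Cd84*. The Myd88-null arrays differed from the Myd88-heterozygous ones by 0.08 in *Cd44* (adjusted p = 0.587 by limma) and by 0.70 in *Cd48* (adjusted p = 0.0469). In *Cd84* they differed by 0.77 (adjusted p = 0.0435 by limma), and the WT mean of 9.45 was above the Myd88-null mean of 9.22. *Itga6*, the laminin receptor chain, was higher by 1.60, and the chemokine receptor gene *Ccr2* fell by 2.41 on the log2 scale, from 10.54, 10.28, 10.48 and 10.35 to 8.26, 7.83, 7.96 and 7.96. In *Ccr2* the Myd88-heterozygous mean of 7.69 was near the Myd88-null level and the WT mean of 10.06 near the *Pax5*+/- level. Of 28 adhesion and homing receptors these 3 (*Cd44*, *Itga6* and *Ccr2*) were called (10.7%), beside 1.07% of all autosomal genes.

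**Figure D3:**
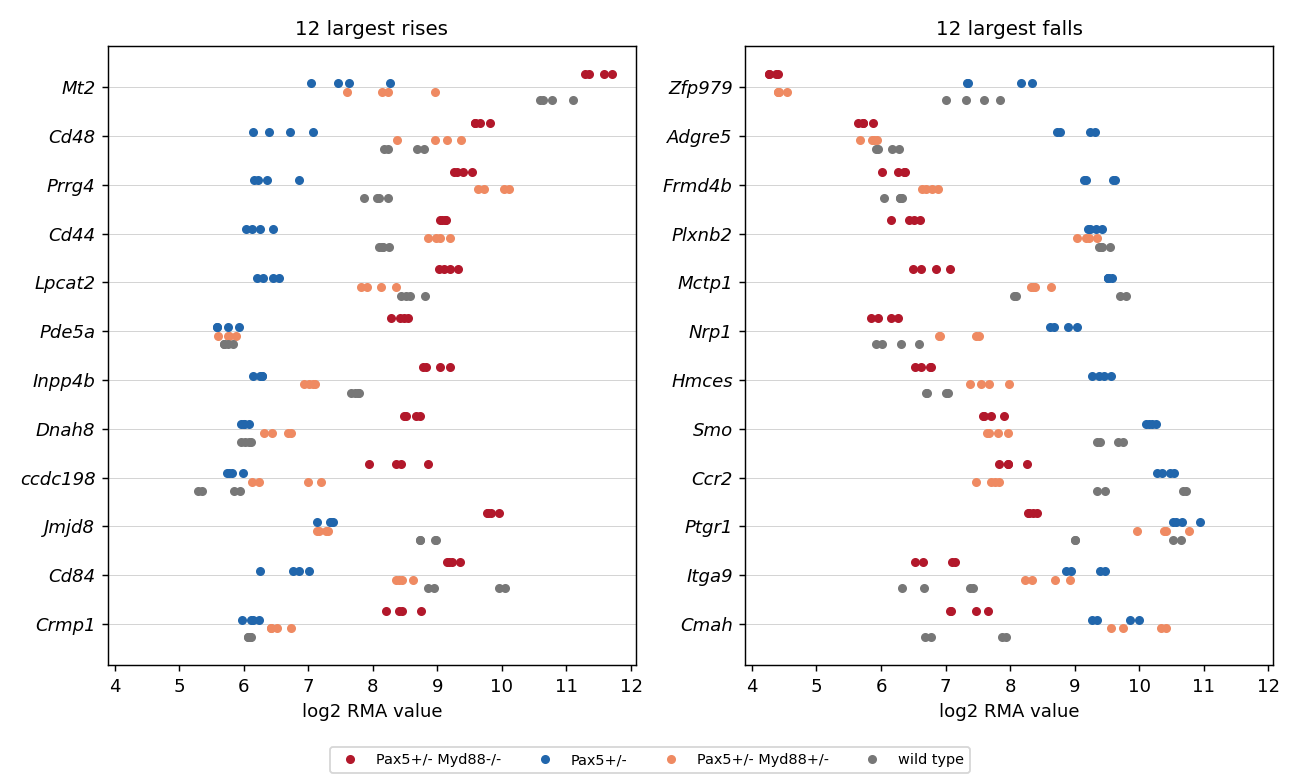
Log2 RMA values of the 12 genes that rose most and the 12 that fell most under the naming rule, 1 point per array, in the 4 Myd88-null, 4 Myd88-intact *Pax5*+/-, 4 Myd88-heterozygous and 4 WT arrays. The red and blue points never overlap, while orange and grey points side with either group depending on the gene: with blue in *Pde5a*, with red in *Adgre5*.

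Other rises set the Myd88-null arrays apart from every other genotype. *Pde5a*, a cGMP phosphodiesterase gene, read 8.42, 8.48, 8.28 and 8.55 against 5.76, 5.59, 5.58 and 5.93 (difference 2.72, SE 0.08, adjusted p = 1.65e-12 by limma), and the other genotypes had means of 5.75 each (Myd88-null minus Myd88-heterozygous 2.68). Its neighbour *Fnbp1l* rose by 2.17 with the same pattern, 8.60, 8.26, 8.34 and 8.59 against 6.24 to 6.37. *Dnah8*, an axonemal dynein gene, was higher by 2.59, *Crmp1* by 2.33 and *ccdc198* by 2.56. *Inpp4b*, a phosphoinositide phosphatase gene, was higher by 2.72, at 8.77 to 9.20 against 6.14 to 6.29. In contrast, *Prrg4* (2.97) had a higher mean in the Myd88-heterozygous arrays (9.88) than in the Myd88-null ones (9.38). In *Lpcat2* and *Jmjd8* the Myd88-null arrays again lay above all others. Their WT means (8.58 and 8.85) were nearer to the Myd88-null means (9.16 and 9.84) than to the *Pax5*+/- means (6.38 and 7.30).

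The largest falls divided in the same way. *Plxnb2*, a semaphorin receptor gene, read 6.60, 6.44, 6.51 and 6.16 in the Myd88-null arrays against 9.24, 9.42, 9.20 and 9.33 (difference -2.87, SE 0.09, adjusted p = 1.93e-12 by limma), and the 12 arrays of the other genotypes lay above 9. In *Adgre5* (CD97), by contrast, the *Pax5*+/- arrays stood alone: they read 8.73, 9.31, 8.77 and 9.23 against 5.65, 5.88, 5.72 and 5.72 in the Myd88-null arrays (difference -3.27, SE 0.12, adjusted p = 2.33e-11), and the other genotypes had means of 5.84 and 6.08. *Frmd4b* (-3.13), *Nrp1* (-2.75), a semaphorin co-receptor gene, and *Hmces* (-2.74) showed the same pattern, with *Pax5*+/- arrays above all 12 others. *Zfp979*, a zinc-finger gene, read 4.27, 4.27, 4.37 and 4.40 against 8.34, 7.33, 8.17 and 7.34 (difference -3.47, SE 0.21, adjusted p = 7.80e-09 by limma). It was low in both *Xist*-high groups (Myd88-heterozygous mean 4.44) and high in both *Xist*-low ones (WT mean 7.44). *Smo*, the signal transducer of the hedgehog pathway, fell by 2.48 and divided in the same way. Its means were 7.70 in the Myd88-null and 7.77 in the Myd88-heterozygous arrays, against 10.18 in the *Pax5*+/- and 9.54 in the WT arrays. *Mctp1* (-2.78), *Ptgr1* (-2.34), *Cmah* (-2.30) and the integrin gene *Itga9* (-2.31) varied between the WT replicates by more than 1 unit, and the first 3 of them lost the call with replicates averaged in pairs (adjusted p = 0.053, 0.0675 and 0.0664 by limma).

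Among lists of B-cell identity, 4.35% of proB genes, 7.41% of pre-B and later genes and 3.57% of lineage transcription factors were called. Over all autosomal genes it was 1.07%. Of 23 proB genes 1 was called, *Bst1* (BP-3), a surface cyclase of B-cell precursors, at 8.72, 7.94, 8.5 and 7.92 against 6.99, 7.27, 7.32 and 7.32 (difference 1.04, SE 0.23, adjusted p = 0.0089 by limma). That call was lost without *Pax5*+/- replicate 1 (0.97), without Myd88-null replicate 1 (0.89) or 3 (0.97), in the fit of all 32 arrays, with replicates averaged in pairs, and with *Pax5*+/- replicates 1 and 3 only (1.12, adjusted p = 0.0542) or 2 and 4 only (0.98). In *Bst1* the *Pax5*+/- arrays lay below all others, with means of 8.19 in the Myd88-heterozygous and 9.21 in the WT arrays. Of 27 genes of the pre-B and later stages 2 were called in opposite directions, 7 had a difference above 0, and the list means were 8.41 to 8.43 against 8.48 to 8.58. *Ikzf3*, which encodes Aiolos, read 6.16, 6.78, 6.64 and 6.76 against 8.12, 8.47, 8.28 and 8.54 (difference -1.77, SE 0.12, adjusted p = 3.42e-08), below all 12 other arrays. *Cd52*, a surface glycoprotein gene, read 11.34, 11.03, 11.10 and 11.11 against 10.29, 9.07, 9.51 and 8.89 (difference 1.70, adjusted p = 0.00112, and 0.0939 with replicates averaged in pairs, by limma). Among 28 transcription factors of the lineage *Ikzf3* was the call, and 7 passed the adjusted p at any size, *Ikzf3* included. Of the 28, 5 had a difference above 0, against 7682 of all 19106 autosomal genes, the median was -0.13, and the list means did not overlap, at 9.56 to 9.61 against 9.63 to 9.87. With *Pax5*+/- replicates 1 and 3 only, 13 of the 28 lay above 0 and the median was -0.07. *Foxo1*, at 10.22 to 10.28 against 10.05 to 10.46, differed by 0.01 (SE 0.09).

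Targets of *Pax5* were examined because both groups share its reduced dose. Of 24 genes that *Pax5* activates, 3 were called (12.5%, beside 1.07% of all autosomal genes): *Adgre5* and *Ikzf3* lower and *Bst1* higher. The median was -0.08. *Bcar3* differed by 0.56 (adjusted p = 0.0111), *Spib*, an Ets factor gene, by 0.81 and *Cd72*, a B-cell co-receptor gene, by -0.99. Of 23 genes that *Pax5* represses, *Ccr2* and *Sdc1* were called (8.7%), both lower, and the median was 0.02. *Sdc1*, the syndecan of plasma cells, read 7.52, 7.62, 7.78 and 7.74 against 8.60, 8.72, 8.69 and 8.70 (difference -1.01, SE 0.09, adjusted p = 9.43e-07 by limma), which put it at the fold threshold: it fell to -0.96 with arrays centred on their median, between -1 and -0.96 without *Pax5*+/- replicate 2 or without Myd88-null replicate 1 or 2, was -0.98 with *Pax5*+/- replicates 1 and 3 only, and lost its call in the fit of all 32 arrays. *Emb* (0.99), *Ccl3* (0.98) and *Fcer1g* (0.97) lay just under it on the other side.

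**Figure D4:**
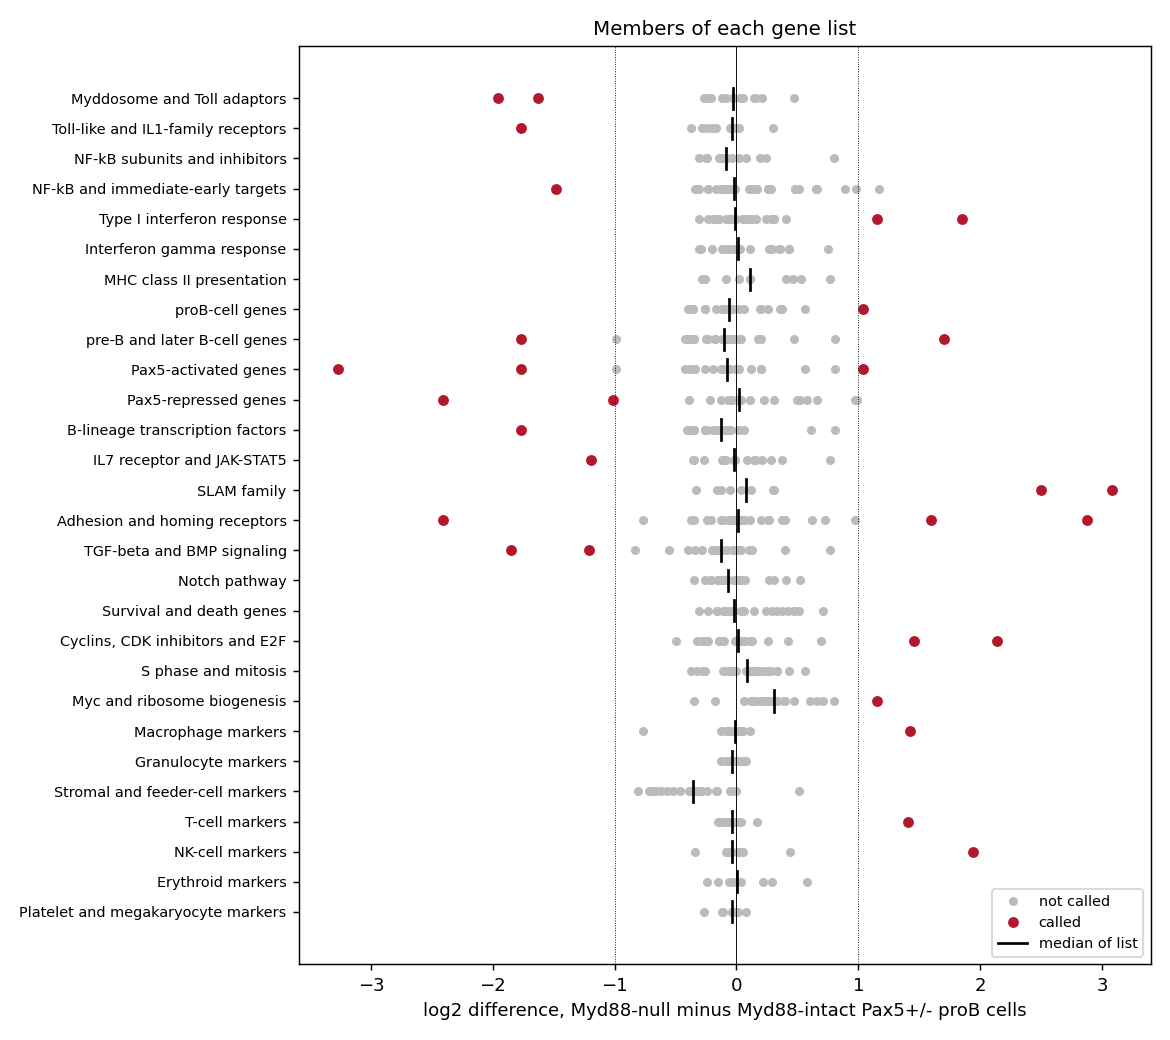
Log2 difference (Myd88-null minus Myd88-intact *Pax5*+/-) of each measured autosomal member of 28 gene lists, 1 point per gene, with called genes in red, list medians as bars and dotted lines at the fold threshold. Most members lie within 1 unit of 0, and the list medians lie between -0.36 (stromal and feeder-cell markers) and 0.30 (*Myc* and ribosome biogenesis).

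Signaling and growth lists held 0 to 2 calls each, beside a share of 1.07% called over all autosomal genes. Of 26 genes of TGF-beta and BMP signaling, 2 were called lower. *Smad7*, the feedback inhibitor of the pathway, read 8.25, 8.33, 8.20 and 8.32 against 9.97, 10.38, 9.93 and 10.23 (difference -1.85, SE 0.12, adjusted p = 3.76e-08 by limma). *Tgfb3* fell by 1.21 on the log2 scale (adjusted p = 0.000157, and 0.0805 with replicates averaged in pairs), while *Tgfb2* (-0.83) and *Smad3* (-0.55) passed the adjusted p alone. The *Pax5*+/- arrays held the highest levels of *Smad7*, *Tgfb2* and *Tgfb3* among the 16. For *Tgfb3* the Myd88-null mean of 9.44 was near the WT mean of 9.27. It was above the Myd88-heterozygous mean of 6.87 (difference 2.57, adjusted p = 3.96e-08 by limma). Of 23 cell-cycle regulators *Cdkn2a* and *Ccnd1* were called, both higher. *Cdkn2a*, the locus of p16Ink4a and p19Arf, read 9.81, 10.39, 10.25 and 10.32 against 7.92, 7.94, 8.14 and 8.22 (difference 2.14, SE 0.11, adjusted p = 2.26e-09 by limma), and the Myd88-null arrays were the highest of the 16. *Ccnd1*, cyclin D1, read 9.47, 9.60, 9.34 and 9.34 against 8.18, 7.79, 8.19 and 7.75 (difference 1.46, adjusted p = 1.49e-06, and 0.118 in the fit of all 32 arrays). In *Ccnd1* the *Pax5*+/- arrays lay below all others, with means of 9.05 in the Myd88-heterozygous and 9.42 in the WT arrays. Of 28 genes of S phase and mitosis, 24 of the Notch pathway and 25 of survival and death none was called, with medians of 0.09, -0.07 and -0.02. *Bcl6* was the 1 call of 17 genes of the IL7 receptor and JAK-STAT5 list, at -1.19 (adjusted p = 0.0133, 0.242 with replicates averaged in pairs, and 0.147 at -1.08 with *Pax5*+/- replicates 1 and 3 only).

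Genes of protein synthesis and respiration were shifted as groups by less than the fold threshold. Of 24 genes of *Myc* and ribosome biogenesis, *Mycn* alone was called (1.15, adjusted p = 0.00182, and 0.137 with replicates averaged in pairs, by limma), but 22 had a difference above 0, against 7682 of all 19106 autosomal genes, and the median was 0.30. Lists drawn up by symbol after the values were seen went the same way. Of 57 ribosomal protein genes 0 were called, 55 lay above 0 and the median was 0.30. Of 78 subunits of oxidative phosphorylation 2 were called (*Atp5md* at 1.11 and *Atp5h* at 1.04), 70 lay above 0 and the median was 0.54. This shift depended on the *Pax5*+/- arrays used. The mean of the 78 genes was 10, 10, 9.92 and 10.02 in the Myd88-null arrays and 9.96, 9.35, 9.44 and 9.24 in the *Pax5*+/- arrays, of which replicate 1 lay at the Myd88-null level. Without that array 11 of the 78 were called and the median was 0.69. With *Pax5*+/- replicates 1 and 3 only, 0 were called and the median was 0.31, and with replicates 2 and 4 only 18 were called and it was 0.74. In the same order the median of the *Myc* list was 0.15 with 1 called and 0.46 with 3 called, and that of the ribosomal protein genes was 0.20 with 0 called and 0.41 with 1 called. The count over all autosomal genes moved with the arrays too. Of 19106 genes, 205 were called with all arrays (1.07%) and 261 without *Pax5*+/- replicate 1. It was 206 with *Pax5*+/- replicates 1 and 3 only and 352 with replicates 2 and 4 only.

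**Figure D5:**
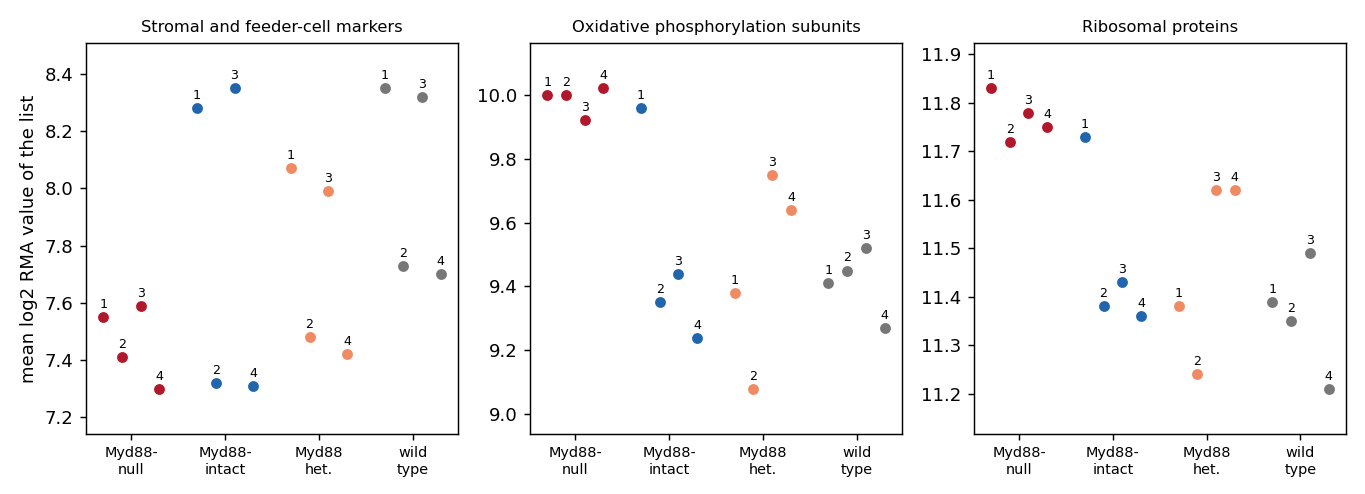
Mean log2 RMA value of 24 stromal and feeder-cell markers, 78 oxidative phosphorylation subunits and 57 ribosomal protein genes in each of the 16 proB arrays, with replicate numbers at the points. In the stromal panel replicates 1 and 3 lie above replicates 2 and 4 in all 4 groups, least so in the Myd88-null group. In the other panels *Pax5*+/- replicate 1 lies at the level of the Myd88-null arrays.

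Markers of other cells were checked because the cells were selected on B220 alone and the methods describe feeder cells for the genotypes other than Myd88-null. Whether the Myd88-null cells were grown on feeder cells is not known from the methods. The mean of 24 stromal and feeder-cell markers was 7.55, 7.41, 7.59 and 7.30 in the Myd88-null arrays and 8.28, 7.32, 8.35 and 7.31 in the *Pax5*+/- arrays. *Pax5*+/- replicates 1 and 3 were thus about 1 unit above replicates 2 and 4, and the latter did not stand above the Myd88-null arrays. None of the 24 was called (median -0.36), and 1 of the 24 had a difference above 0. With *Pax5*+/- replicates 1 and 3 only 5 were called lower and the median was -0.77, while with replicates 2 and 4 only 0 were called, 16 lay above 0 and the median turned to 0.13. Over all 19106 autosomal genes, 107 were called lower with replicates 1 and 3 only, and 352 were called in either direction with replicates 2 and 4 only. What feeder RNA contributes to the differences of single genes was not tested. In bulk samples, fewer cells of a type and less RNA per cell cannot be told apart. Of 18 macrophage markers *Lyz2*, lysozyme, was called (1.42, adjusted p = 0.0121 by limma, at 8.99, 8.71, 8.68 and 8.75 against 7.63, 7.17, 7.49 and 7.16), but the call was lost with replicates averaged in pairs (adjusted p = 0.232) and with *Pax5*+/- replicates 1 and 3 only (1.22, adjusted p = 0.158), and the list means were 6.56 to 6.62 against 6.52 to 6.59. Of 12 NK-cell markers *Klrd1* was called (1.94, adjusted p = 0.00494, and 0.188 with replicates averaged in pairs), with list means of 5.79 to 5.95 against 5.65 to 5.78. No granulocyte (18), erythroid (8) or platelet marker (9) was called, beside 1.07% of all autosomal genes.

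On chromosome 9 as a whole 1.29% of genes were called, and on all autosomes 1.07%. Of the 162 genes measured within 10 Mb of *Myd88*, which lay at -9.96 to 4.77 Mb from it, 6 were called (3.70%). These were 1 higher and 5 lower, the deleted *Myd88* included. Besides *Myd88* they were *Itga9* and *Ccr2*, named above, *Higd1a*, a mitochondrial protein gene (difference 1.25, adjusted p = 0.000219 by limma), *1700048O20Rik* (-1.29) and *4930520O04Rik* (-1.70). Means of *1700048O20Rik* were 8.24 in Myd88-null and 7.70 in Myd88-heterozygous arrays, against 9.53 in *Pax5*+/- and 9.82 in WT arrays. Of 33 genes within 1 Mb, those other than *Myd88* and *Itga9* differed by -0.52 to 0.33. The methods' name for the *Myd88* line holds strains other than C57BL/6 and CBA. Strain differences in the DNA around the deleted allele cannot be told apart here from loss of *Myd88*. Called genes often had called neighbours, here too: 80 of the 205 called genes (39.0%) had another within 1 Mb, as did 21.2% of all genes tested. The stretch with the most called genes was the protocadherin cluster on chromosome 18, where 6 of 6 genes measured from *Pcdhb16* to *Pcdhb21* were lower by 1.43 to 2.05 on the log2 scale. These paralogs may share probes, and in each the 4 *Pax5*+/- arrays lay above the 12 others.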

How the data were processed

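Total RNA of 32 samples was hybridised to Affymetrix mouse gene arrays, and the 16 proB arrays were used here. The authors made the deposited log2 values with the Transcriptome Analysis Console, by gene-level RMA (background correction, quantile normalization and median polish) on mm10. The deposited log2 values are rounded to 2 decimals, and whether all arrays were normalized together is not stated. Values at the low end of RMA are compressed, so that differences of dim genes are understated.

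From these values, limma 3.58.1 in R 4.3.3 was fitted to the 16 proB arrays, 4 of each genotype, with Benjamini-Hochberg adjustment over all 28944 probesets. Calls were counted over 20874 probesets that name 1 autosomal gene. In gene lists and positions a gene (19106 in all) was represented by its probeset with the highest mean over all 32 arrays. Gene positions and promoters are those of RefSeq. The number of arrays limits the precision. The median SD within a group was 0.0862 for the Myd88-null and 0.101 for the Pax5+/- arrays.

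The comparison, the 28 gene lists and the alternatives were chosen with earlier results of these data known. Named genes were the 12 largest rises and 12 largest falls among called genes without overlap (small RNA, antigen-receptor and unnamed transcripts left out), in each list the 2 called genes that differed most, Myd88, Pax5, genes the study names for proB cells and called genes within 10 Mb of Myd88. Other genes and the lists by symbol were picked after the values were seen. The remaining lists by symbol gave 1 call of 363 small RNAs (median -0.04) and 0 of 41 histone genes (median -0.14). Alternatives were the 8 arrays alone, all 32 arrays, centring on array medians, quantile normalization again, a minimum mean of 6, autosomal probesets alone, limma-trend, the replicate number as a block, other thresholds and each array left out. Averaging replicates 1 and 3, and 2 and 4, and using only 1 of these pairs of Pax5+/- arrays were added after the values were seen. The leukemia arrays entered only the fit of all 32 and the mean by which a gene's probeset was chosen.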

Additional observations from a re-analysis of the deposited data

Results flagged for a closer look

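Of 96 groups of 4 arrays (48 named probesets in the Myd88-null and the Pax5+/- arrays), 5 had an array whose gap to its nearest neighbour was a larger part of the group's range than Dixon's critical value. Chance flags about 1 group in 20. Myd88 in Myd88-null replicate 3 was 7.04, below 7.38 to 7.44 in the other null arrays (ratio 0.85). Ifitm3 in the same array was 10.21, below 10.58 to 10.62 (ratio 0.902). Bst1 in Pax5+/- replicate 1 was 6.99, below 7.27 to 7.32 (ratio 0.848). Higd1a in Pax5+/- replicate 1 was 8, above 7.01 to 7.15 (ratio 0.859). Mctp1 in Pax5+/- replicate 3 was 9.58, above 9.51 to 9.52 (ratio 0.857), a gap of 0.06 that reflects how close the other 3 values were. In each of the 5 genes the 4 and 4 values stayed apart. The cause was not tested.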

How the results depend on the processing

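The count of 221 autosomal probesets stayed within 1.5 times of itself under the 8 arrays alone (223), all 32 arrays (174), centring (244), renewed quantile normalization (213), a minimum mean of 6 (214), autosomal probesets alone and limma-trend (221 each), averaged pairs of replicates (154) and Pax5+/- replicates 1 and 3 only (214). It rose to 399 with Pax5+/- replicates 2 and 4 only, and to 2434 (11.7%) at an adjusted p under 0.05 of any size. The share called higher, 59.3%, was 73.4% with Pax5+/- replicates 2 and 4 only, 69.1% (208 probesets) without Pax5+/- replicate 1 and 49.1% with replicates 1 and 3 only. With 1 array left out the count was 196 to 301, the Myd88 difference -2 to -1.86, the Pax5 difference -0.25 to -0.09 and the different list members called 24 to 28, from 25. With averaged pairs 16 list members were called. The Pax5 difference of -0.17 turned to 0.03 with Pax5+/- replicates 1 and 3 only. That of Foxo1, 0.01, turned to -0.08 (renewed quantile normalization), -0.04 (without Pax5+/- replicate 1), -0.05 (without Pax5+/- replicate 3, with a highest value of 0.09 without replicate 2) and -0.16 (Pax5+/- replicates 2 and 4 only). Averaged pairs ended the call of 12 named genes: Mctp1, Ptgr1, Cmah, Il18r1, Ifitm3, Bst1, Cd52, Bcl6, Tgfb3, Mycn, Lyz2 and Klrd1. The fit of all 32 arrays ended that of 7: Il18r1, Bst2, Bst1, Sdc1, Ccnd1, Lyz2 and Klrd1. The cause was not tested. Single replicate numbers did not pair Myd88-null with Pax5+/- arrays. The deviations of same-numbered arrays correlated at 0.29, 0.19, 0.11 and 0.04, and replicates 3 and 4 correlated best with another number. Replicates 1 and 3 did differ from 2 and 4 in stromal and feeder-cell markers in every proB genotype. Their list means were 8.35 and 8.32 against 7.73 and 7.70 in WT, and 7.55 and 7.59 against 7.41 and 7.30 in Myd88-null arrays. What this grouping stands for was not tested. With the number as a block, 222 probesets were called, with all 221 among them. The block left Myd88 at -1.96, Pax5 at -0.17 and 25 list members called.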

Other observations

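The genes named here lay outside the lists and were picked after their values were seen. Apobec3, a cytidine deaminase gene that restricts retroviruses, read 11.20, 11.16, 11.07 and 11.29 in the Myd88-null and 9.47, 9.70, 9.14 and 9.51 in the Pax5+/- arrays (difference 1.72, SE 0.11, adjusted p = 1.56e-08 by limma). The Myd88-heterozygous arrays were as high, at 11.23 to 11.63, and the WT arrays as low as the Pax5+/- ones, at 9.44 to 9.70. Ly6e, an interferon-inducible surface protein gene, was higher by 1.98, at 12.76 to 12.89 against 10.66 to 11.07. In Ly6e the Pax5+/- arrays lay below all others (Myd88-heterozygous mean 12.86, WT mean 11.78). Lower were the dNTP hydrolase gene Samhd1 (-1.85, 7.57 to 7.95 against 9.38 to 9.64), the DNA sensor gene Aim2 (-1.35, 8.06 to 8.57 against 9.52 to 9.79) and Mlkl, the effector of necroptosis (-1.90). In Samhd1 the Pax5+/- arrays lay above all others (Myd88-heterozygous mean 8.46, WT mean 8.15). Aim2 was low in both Xist-high groups (Myd88-heterozygous mean 8.69) and high in both Xist-low ones (WT mean 10.29). Mlkl read 6.10, 6.40, 6.36 and 6.27 against 8.30, 8.12, 8.27 and 8.06, with the Myd88-heterozygous and WT arrays at 6.01 to 6.28, so that the Pax5+/- arrays stood alone.

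Il27ra, a chain of the interleukin-27 receptor, read 8.84, 8.86, 8.72 and 8.70 against 7.19, 7, 7.17 and 7.05 (difference 1.68, SE 0.06, adjusted p = 1.64e-11 by limma). Ctla4 was higher by 1.34 and Pdcd1, which encodes PD-1, lower by 1.13 on the log2 scale, at 6.29 to 6.51 against 7.35 to 7.62. In Pdcd1 the Pax5+/- arrays lay above all others (Myd88-heterozygous mean 6.69, WT mean 6.42). Ly6d, a surface marker of committed lymphoid precursors, read 8.34, 8.37, 8.47 and 8.09 against 6.80, 6.69, 6.24 and 6.48. Its means were 7.93 in the Myd88-heterozygous and 6.51 in the WT arrays, so that both Xist-high groups were higher. Gas7 fell by 2.13 on the log2 scale and Sorl1, a sorting receptor gene, by 2.29, from 9.25 to 9.54 down to 6.95 to 7.21. By chromosome the share of genes called ran from 0.309% (2 of 648) on chromosome 16 to 2.29% (16 of 699) on chromosome 14, with chromosome 18 at 2.12% (10 of 471).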
